A study of Mus musculus with 8 samples.

Results

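The core of the Notch pathway was followed in mouse embryonic epidermis through 10 genes of 23146 named in the count tables. These were chosen by their place in the pathway, with earlier results of these data known. They are the receptors Notch1, Notch2 and Notch3, the ligands Jag1, Jag2, Dll1 and Dll4, the DNA-binding factor Rbpj, and the target genes Hes1 and Hey1. All 10 passed the filter on low counts. RNA was sequenced from 8 epidermis libraries, 2 in each of 4 groups, at E15.5 and at E17.5 (E, embryonic day). Control embryos carried floxed alleles of Noc2l, also called Nir, and the knockout embryos carried the floxed alleles with Krt14-Cre, a Cre recombinase under the promoter of keratin 14, which is active in basal keratinocytes. The sources used here give neither the strain nor the floxed exons. Nor do they say whether a library came from 1 embryo or a pool, so the p-values rest on a spread between libraries that may be partly technical. Noc2l codes for a nucleolar protein that inhibits histone acetylation.

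Notch receptors sit in the membrane and are bound by Jagged or Delta ligands of a neighbouring cell. Proteases then release the intracellular part of the receptor, which enters the nucleus, joins Rbpj and Mastermind proteins on DNA, and turns on repressor genes of the Hes and Hey families. In skin the pathway is known for promoting the step from basal to spinous keratinocytes, and in blood vessels Dll4 and Notch4 of the endothelium and Notch3 of pericytes and smooth muscle are known for their part in vessel growth.

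Gene counts summed to between 25226357 and 28895657 per library, and 17835 to 18092 genes were detected. Noc2l, the targeted gene, read 107 and 97.4 CPM (the count scaled to a common library size) in the E15.5 controls and 95.6 and 91.6 CPM in the E15.5 knockouts. At E17.5 it read 106 and 121 CPM in the controls and 85.4 and 86.9 CPM in the knockouts. It was lower in every knockout library, but the E15.5 difference did not pass the edgeR quasi-likelihood test (log2 change -0.12, adjusted p = 0.33), while the E17.5 difference did (log2 change -0.39, adjusted p = 0.0062). The count covers the whole transcript, so it does not check a deletion of part of it. The labelled tissue was checked against markers of the cell types a skin preparation can hold. The 10 basal keratinocyte markers summed to 7325 to 7792 CPM in E15.5 controls and 2238 to 2275 CPM in E15.5 knockouts, and 10 dermal fibroblast markers to 31357 to 33343 CPM and 77568 to 96048 CPM. At E17.5 the fibroblast sum was 27205 to 31432 CPM in controls and 98347 to 103948 CPM in knockouts. Keratinocyte and dermal markers were thus both present in every library, and their balance differed between the genotypes. In such bulk RNA, fewer cells of a type and less RNA per cell cannot be told apart. The part of these shifts in the Notch results was not tested.

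In knockout epidermis most of the 10 genes were lower. At E15.5, 7 of them fell (Notch1, Notch3, Jag1, Jag2, Dll1, Hes1 and Hey1), 2 rose (Dll4 and Rbpj), and Notch2 did not pass the test. Of all 16342 genes tested, edgeR called 45.5% at this stage, 22.3% lower and 23.2% higher. At E17.5, 6 fell, the same as at E15.5 without Notch3, and Dll4 and Rbpj rose, against 53.5% of all genes called, 26.7% in each direction. The median log2 change of the 10 genes was -0.72 at E15.5 and -0.77 at E17.5, and that of all genes was -0.0047 and -0.023. As the 10 were chosen with earlier results known, these counts and medians describe them and do not test them as a set. The libraries of the genotypes did not overlap for 9 of the 10 genes at either stage, a separation also seen in 74.4% of all genes at E15.5 and 78.1% at E17.5. At E15.5 the knockouts lay below for 7 members and above for 2, against 37.3% and 37.1% of all genes. At E17.5 they lay below for 6 and above for 3, against 39.7% and 38.4% of all genes. Both stages have their own control libraries.

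**Figure D1:**
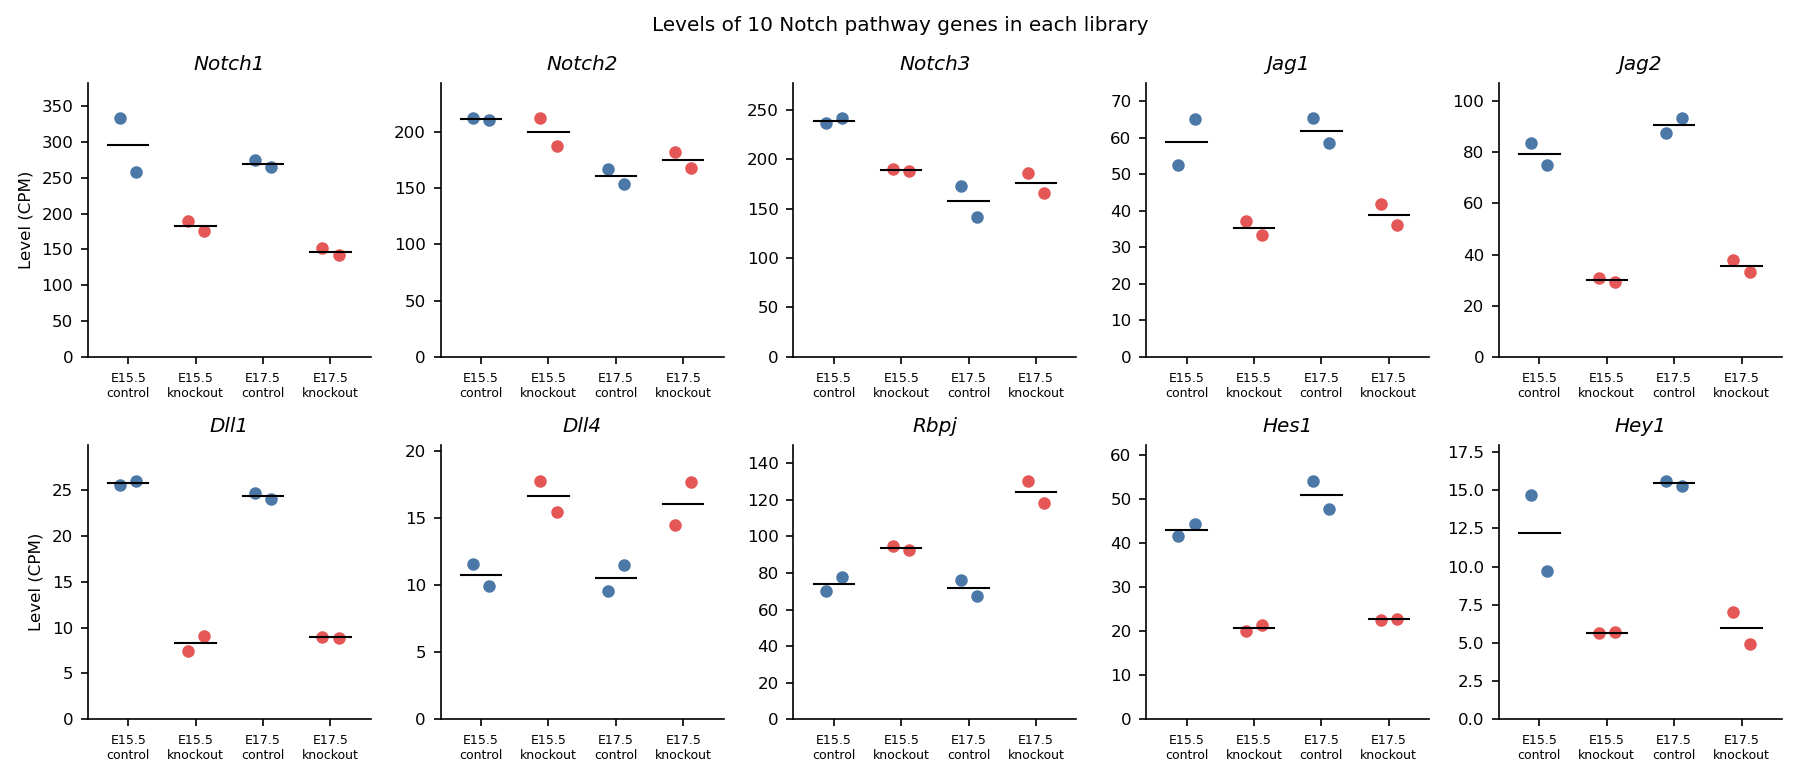
Level of each of the 10 Notch pathway genes in every library, in CPM (linear axis from 0, a separate scale for each gene), with the 2 libraries of each group as points and their mean as a line. Jag2, Dll1, Hes1 and Hey1 lie lower in all 4 knockout libraries than in any control, Dll4 and Rbpj lie higher, and Notch2 and Notch3 differ little between genotypes at E17.5.

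Among the receptors, Notch1 was the one that fell at both stages. Notch1 is the receptor best known for its role in keratinocyte differentiation. It read 333 and 258 CPM in the E15.5 controls and 189 and 175 CPM in the knockouts. At E17.5 it read 275 and 265 CPM in the controls and 152 and 142 CPM in the knockouts. All 4 control libraries lay above all 4 knockout libraries, and at E15.5 the controls spread more widely than the knockouts. The level was 1.62-fold lower at E15.5 (log2 change -0.70 ± 0.13, SE, edgeR adjusted p = 0.00087) and 1.84-fold lower at E17.5 (-0.88 ± 0.13, adjusted p = 0.00013).

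Notch2, a receptor whose loss in skin overlaps in effect with that of Notch1, read 212 and 211 CPM in the E15.5 controls and 212 and 187 CPM in the knockouts. At E17.5 its controls read 167 and 154 CPM and its knockouts 182 and 167 CPM. The knockouts overlapped the controls at E15.5 and just cleared them at E17.5. Neither difference passed the edgeR test, at a log2 change of -0.08 ± 0.10 (adjusted p = 0.54) and 0.12 ± 0.10 (adjusted p = 0.33). The E15.5 value was 0.01 with upper-quartile scaling and 0.0025 without E15.5 knockout 2, on the other side of 0.

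Notch3, a receptor of mural cells that is also made in keratinocytes, read 236 and 241 CPM in the E15.5 controls and 190 and 188 CPM in the knockouts. Its E17.5 controls read 173 and 142 CPM and its knockouts 186 and 166 CPM, so the groups were apart at E15.5 and overlapped at E17.5. The E15.5 fall was small (-0.34 ± 0.11, edgeR adjusted p = 0.032), and the E17.5 value was 0.16 ± 0.11 (adjusted p = 0.26). The E15.5 call was lost with upper-quartile scaling (-0.24, adjusted p = 0.095) and without any 1 of the E15.5 libraries. It read -0.35 (adjusted p = 0.090) without control 1, -0.32 (adjusted p = 0.12) without control 2, -0.35 (adjusted p = 0.11) without knockout 1 and -0.33 (adjusted p = 0.12) without knockout 2.

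Notch4, the endothelial receptor, is no member but completes the family. It read 12.5 and 11.4 CPM in the E15.5 controls and 23.5 and 16.6 CPM in the knockouts, and 12.7 and 14.0 CPM against 25.6 and 26.0 CPM at E17.5. It rose by 0.75 ± 0.17 (log2, edgeR adjusted p = 0.0035) and 0.95 ± 0.16 (adjusted p = 0.0005). Without knockout 1 the E15.5 value was 0.47 (adjusted p = 0.045). Beside it, all 10 endothelial markers rose at both stages, against 23.2% of all genes called higher at E15.5 and 26.7% at E17.5. The markers had a median log2 change of 0.64 and 0.80. They summed to 543 to 550 CPM in E15.5 controls and 902 to 916 CPM in knockouts. Their part in the Notch4 result was not tested.

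The ligands did not move together. Jag1, Jag2 and Dll1 fell at both stages, and Dll4 rose. Jag2, the Jagged ligand of basal keratinocytes, read 83.6 and 74.8 CPM in the E15.5 controls and 31.0 and 29.4 CPM in the knockouts. At E17.5 it read 87.6 and 93.2 CPM in the controls and 37.9 and 33.1 CPM in the knockouts. No knockout library came near a control, and the level was 2.62-fold lower at E15.5 (-1.39 ± 0.11, edgeR adjusted p = 2.2e-06) and 2.55-fold lower at E17.5 (-1.35 ± 0.11, adjusted p = 1.6e-06).

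Dll1, a Delta ligand that human epidermal stem cells are known to carry, had the largest fall of the 10 in log2 terms at E15.5, and at E17.5 it lay within 1 SE of Hey1 and Jag2. Its E15.5 controls read 25.6 and 26.0 CPM and its knockouts 7.48 and 9.08 CPM. Its E17.5 controls read 24.7 and 23.98 CPM and its knockouts 9.02 and 8.91 CPM. Libraries within a group were close together, and the groups were far apart. The log2 change was -1.64 ± 0.14 at E15.5 (edgeR adjusted p = 3.2e-06) and -1.44 ± 0.14 at E17.5 (adjusted p = 5.2e-06), which is a level 3.11-fold and 2.71-fold lower.

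Jag1, the other Jagged ligand, read 52.5 and 65.2 CPM in the E15.5 controls and 37.2 and 33.2 CPM in the knockouts. It read 65.3 and 58.5 CPM in the E17.5 controls and 41.7 and 36.2 CPM in the knockouts. The groups did not overlap. The log2 change was -0.74 ± 0.13 at E15.5 (edgeR adjusted p = 0.00086) and -0.67 ± 0.13 at E17.5 (adjusted p = 0.0013).

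Dll4, the Delta ligand of arterial and sprouting endothelium, was the ligand that rose. It read 11.6 and 9.91 CPM in the E15.5 controls and 17.8 and 15.48 CPM in the knockouts, and 9.57 and 11.5 CPM against 14.5 and 17.6 CPM at E17.5. Knockout libraries were all above control libraries, though the spread within a group was wide for so low a gene. The log2 change was 0.63 ± 0.17 at E15.5 (edgeR adjusted p = 0.0094) and 0.61 ± 0.17 at E17.5 (adjusted p = 0.0092). The E15.5 call was lost without control 2 (0.52, adjusted p = 0.080) or knockout 1 (0.52, adjusted p = 0.075), and the E17.5 call without control 1 (0.48, adjusted p = 0.073) or knockout 2 (0.44, adjusted p = 0.0997). The endothelial markers Pecam1, Cdh5 and Kdr rose by 0.73, 0.75 and 0.62 at E15.5 and by 0.79, 0.85 and 0.69 at E17.5, near the value of Dll4. The arterial markers were mixed, with 2 of 5 risen and Efnb2 fallen at E15.5 and 3 of 5 risen and Efnb2 fallen at E17.5. Of all genes, 23.2% were called higher at E15.5 and 26.7% at E17.5. The part of the endothelial and arterial markers in the Dll4 result was not tested. Gm14207, on the strand opposite to Dll4 with overlapping exons, had 16 to 53 counts per library, and without a stated strand setting its reads cannot be told apart from those of Dll4. In GENCODE M21, exons of Notch1, Notch2, Notch3 and Dll1 also overlap those of other genes, which have no counts of their own here. For Notch2 the overlapping gene lies on the same strand.

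**Figure D2:**
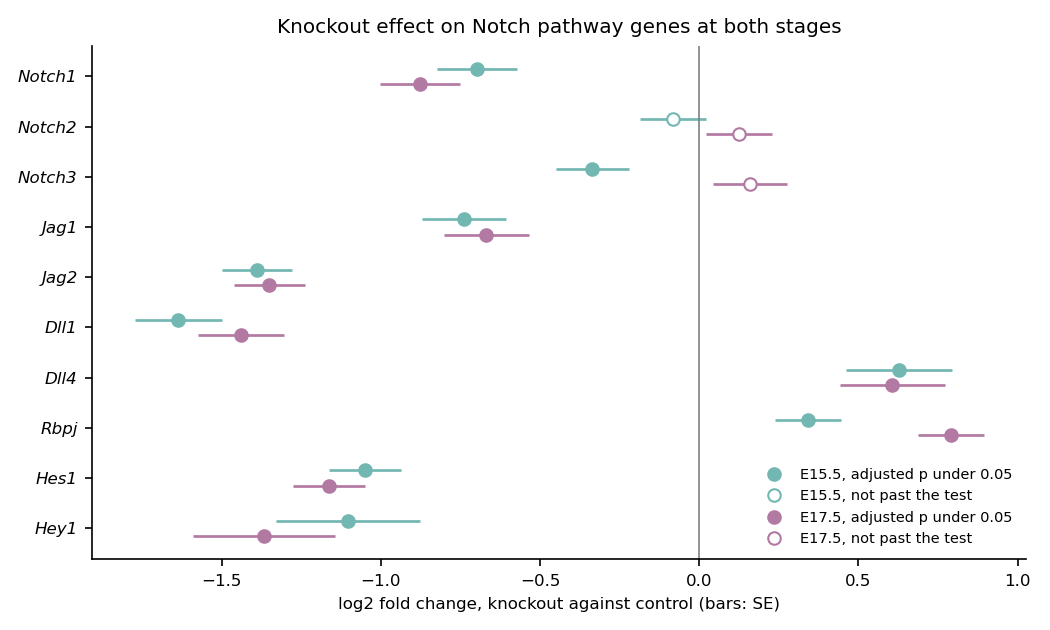
Log2 change of the 10 Notch pathway genes in knockout against control epidermis at E15.5 and E17.5 (horizontal axis, from the edgeR fit over all genes), with bars of 1 SE and filled points for an adjusted p under 0.05. Dll1 lies at -1.64 and -1.44 and Jag2 at -1.39 and -1.35, and Dll4 and Rbpj lie to the right of 0.

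Rbpj, the DNA-binding factor on which all 4 receptors converge, rose. It read 70.1 and 77.6 CPM in the E15.5 controls and 94.9 and 92.4 CPM in the knockouts. At E17.5 it read 76.4 and 67.5 CPM in the controls and 130 and 118 CPM in the knockouts. The knockouts were above the controls at both stages. The fitted change was larger at E17.5, but the difference between the stages did not pass the edgeR test (0.45 ± 0.15, adjusted p = 0.13). The log2 change was 0.34 ± 0.10 at E15.5 (edgeR adjusted p = 0.019) and 0.79 ± 0.10 at E17.5 (adjusted p = 6.6e-05). The E15.5 call was lost without control 1 (0.27, adjusted p = 0.13), knockout 1 (0.32, adjusted p = 0.092) or knockout 2 (0.36, adjusted p = 0.059). Rbpj has 3 processed pseudogenes in the RefSeq gene table, and reads from such copies could be counted with it.

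Sequence just upstream of the start site was read for the members from the RefSeq promoter table of GRCm38.p6, which held windows for 8 of the 10. It held none for the target genes Hes1 and Hey1, so these were not searched. The search was for TGGGAA, the core of the site that Rbpj binds, on both strands (read as TTCCCA on the other), in 300 bases from 250 before the start to 50 after. Rbpj was the 1 member of these 8 with a match, and the other 7 had none. The core is a 6-base word, found in 25.6% of all 32851 windows. One window of Rbpj, plus strand, chr5:53590096-53590345, holds it 149 and 65 bases before its start site, as marked in capitals. That start site lies inside the span of the gene given below (chr5:53555779-53657445) and not at its first base. A second Rbpj window, chr5:53590236-53590485, overlaps the first and holds 1 match, 205 bases before its own start site. A window of Dll1, minus strand, chr17:15376933-15377182, is shown beside it, as Dll1 had the largest fall at E15.5, and holds no match. The other Dll1 window, chr17:15375824-15376073, holds none either. A match of letters is a description and not a binding site.
Rbpj: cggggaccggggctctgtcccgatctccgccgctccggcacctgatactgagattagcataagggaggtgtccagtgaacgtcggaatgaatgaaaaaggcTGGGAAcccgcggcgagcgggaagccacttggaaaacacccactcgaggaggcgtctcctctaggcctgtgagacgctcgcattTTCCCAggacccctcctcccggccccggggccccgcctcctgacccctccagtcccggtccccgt
Dll1: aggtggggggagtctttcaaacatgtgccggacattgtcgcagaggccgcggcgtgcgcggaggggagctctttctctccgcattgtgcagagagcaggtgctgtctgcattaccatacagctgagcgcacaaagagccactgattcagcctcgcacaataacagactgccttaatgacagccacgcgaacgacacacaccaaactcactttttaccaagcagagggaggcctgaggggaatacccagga
The word CACGTG, an E-box form, was also searched on both strands. It was in 7.15% of all windows and in no window of the members.

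Both target genes fell. Hes1, a repressor that maintains spinous cells in embryonic mouse epidermis, read 41.7 and 44.4 CPM in the E15.5 controls and 20.0 and 21.5 CPM in the knockouts. At E17.5 it read 54.2 and 47.8 CPM in the controls and 22.6 and 22.9 CPM in the knockouts. Its knockout libraries were tight and well below the controls, at a log2 change of -1.05 ± 0.11 (edgeR adjusted p = 2.1e-05) and -1.16 ± 0.11 (adjusted p = 6.6e-06). Hey1, a related repressor also known from blood vessels, read 14.7 and 9.72 CPM in the E15.5 controls and 5.63 and 5.73 CPM in the knockouts. At E17.5 it read 15.6 and 15.3 CPM in the controls and 7.05 and 4.92 CPM in the knockouts. The groups did not overlap, with 1 control library at E15.5 well below the other. Its log2 change was -1.10 ± 0.23 at E15.5 (edgeR adjusted p = 0.0020) and -1.37 ± 0.22 at E17.5 (adjusted p = 0.00033).

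The order of levels was compared between genes only per length, as CPM per kilobase of transcript. In E15.5 controls Notch1 (31.2 ± 5.58, SD, n = 2), Notch3 (29.8 ± 0.463) and Hes1 (29.3 ± 1.28) were highest, and their libraries overlapped. Notch2 (20.1), Jag2 (15.51), Rbpj (13.6), Jag1 (10.5), Dll1 (7.19), Hey1 (5.04) and Dll4 (2.87) followed without overlap. In E17.5 controls Hes1 led (34.7 ± 3.07), followed by Notch1 (28.5). Notch3 (19.7) and Jag2 (17.7) overlapped, and Notch2 (15.3), Rbpj (13.2), Jag1 (11.03), Dll1 (6.79), Hey1 (6.38) and Dll4 (2.81) followed without overlap. In the knockouts the order was different. At E17.5 Rbpj (22.9 ± 1.55) and Notch3 (21.9) were highest and overlapped. Notch2 (16.6), Hes1 and Notch1 came next, with Notch1 overlapping both, Jag2 (6.95) and Jag1 (6.94) were not separated, and Dll4 (4.29) stood above Dll1 (2.50) and Hey1 (2.47), which overlapped. In E15.5 knockouts Notch3 (23.6) was highest, Notch1 (19.2) and Notch2 (19.0) overlapped, and Rbpj (17.2) and Hes1 (14.2) followed. Jag1 (6.28) and Jag2 (5.92) overlapped, Dll4 (4.44) came next, and Hey1 (2.34) and Dll1 (2.31) were not separated.

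The make-up of the receptor and ligand pools was taken from the same scale. The 4 receptors, Notch4 included, summed to 82.9 ± 5.29 CPM per kilobase in E15.5 controls and 64.8 ± 3.68 in knockouts, and to 65.4 ± 4.27 and 58.0 ± 3.53 at E17.5. Notch1 made up 37.5% ± 4.34 of that sum in E15.5 controls and 29.6% ± 0.0648 in knockouts, and 43.6% ± 1.70 and 26.7% ± 0.307 at E17.5. The share of Notch3 was 36.0% and 36.4% at E15.5 and 30.0% and 37.8% at E17.5. Thus in E17.5 controls Notch1 was the most abundant receptor transcript per length, and in E17.5 knockouts Notch3 was. The 4 ligands summed to 36.1 ± 0.153 CPM per kilobase in E15.5 controls and 18.9 ± 0.836 in knockouts, and to 38.4 ± 0.156 and 20.7 ± 0.799 at E17.5. Within that smaller sum, Dll4 went from 7.96% to 23.4% at E15.5 and from 7.34% to 20.8% at E17.5. Jag2 went from 43.0% to 31.3% and from 46.2% to 33.6%, and Dll1 from 20.0% to 12.2% and from 17.7% to 12.1%. These shares are descriptions of RNA over all cells of a library and were not tested.

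**Figure D3:**
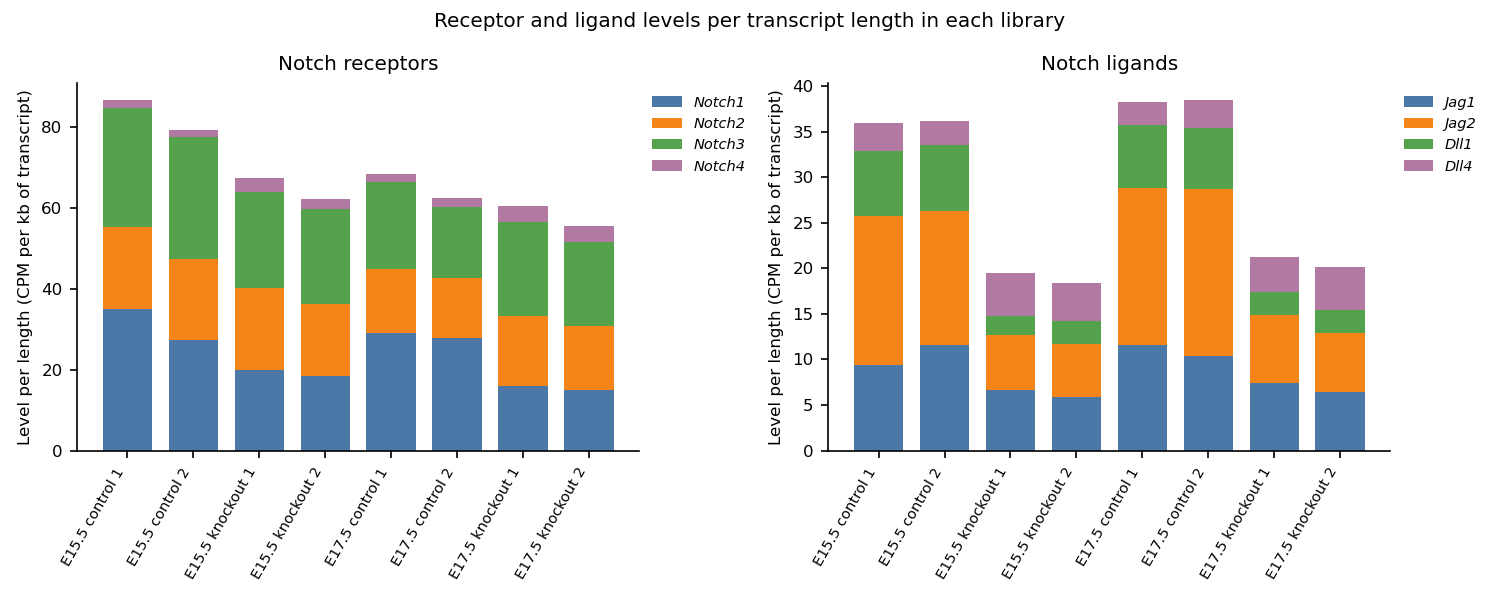
Summed level of the 4 receptors (left) and of the 4 ligands (right) in each library, in CPM per kilobase of transcript, stacked by gene, on axes from 0. The ligand stack is 36.1 and 38.4 on average in the control groups and 18.9 and 20.7 in the knockout groups, with a larger Dll4 layer in the knockouts.

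The other genes of the pathway were counted by list, from 57 that the tables hold, of which 54 were tested. At E15.5, 11 rose and 14 fell, and at E17.5, 15 rose and 17 fell. That is 46.3% and 59.3% called, close to the shares of all genes given above, with a median log2 change of -0.03 and 0.08. The fallen genes of both stages include Kyat1, a metabolic enzyme that stood on the co-repressor list. Of 6 other Hes, Hey and target genes tested, 2 fell and 1 rose at E15.5, and 5 fell and 1 rose at E17.5. That is 50% and 100% called, against 45.5% and 53.5% of all genes. Nrarp, a target that feeds back to inhibit the pathway, read 142 and 138 CPM in the E15.5 controls and 36.4 and 41.9 CPM in the knockouts, and 116 and 100.5 CPM against 24.9 and 26.4 CPM at E17.5. It fell by 1.83 ± 0.11 (log2, edgeR adjusted p = 2.6e-07) and by 2.08 ± 0.11 (adjusted p = 6.4e-08).

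Hes5, a target best known from neural progenitors, was a low gene, with 83 and 67 counts in the E15.5 controls and 10 and 4 in the knockouts. It had 119 and 153 counts in the E17.5 controls and 13 and 0 in the knockouts. It fell by 3.47 ± 0.68 (log2, edgeR adjusted p = 0.0015) and by 4.26 ± 0.67 (adjusted p = 0.00025). Without E17.5 knockout 1, which leaves a knockout group of 0 counts, the E17.5 fitted value was -10.01, and without knockout 2 it was -3.29, so its size is loosely set. Hes2 had 79 counts in the E17.5 controls and 2 in the knockouts, a ratio of 37.1 with a counting interval of 9.94 to 312 that covers counting error only (edgeR adjusted p = 0.00078). The E17.5 controls had 25 and 54 counts and the knockouts 2 and 0, and the fitted Hes2 value of -5.03 became -8.22 without E17.5 knockout 1 and -4.12 without E17.5 knockout 2. At E15.5 it had 10 and 2 counts, a ratio of 5.28 (interval 1.12 to 49.5, adjusted p = 0.15). Heyl, known from vascular smooth muscle, was at 53.8 and 41.8 CPM in the E15.5 controls and 43.1 and 37.6 CPM in the knockouts, which overlapped (-0.24, adjusted p = 0.22). At E17.5 it was at 65.2 and 71.8 CPM in the controls and 36.1 and 27.7 CPM in the knockouts and fell by 1.10 ± 0.16 (adjusted p = 0.00012).

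Upstream of the nucleus, the changes went in both directions. Lfng, a glycosyltransferase that changes which ligands a receptor answers to, fell from 47.2 to 18.3 CPM at E15.5 (-1.36 ± 0.10, edgeR adjusted p = 1.6e-06) and from 52.4 to 24.3 CPM at E17.5 (-1.11 ± 0.10, adjusted p = 4.5e-06). Of the 5 glycosyltransferases, 2 fell and 1 rose at E15.5 and 2 fell and 2 rose at E17.5. That is 60% and 80% called, against 45.5% and 53.5% of all genes. Neurl1a, a ubiquitin ligase that acts on ligands, rose by 1.01 ± 0.17 (adjusted p = 0.00052) and 1.47 ± 0.17 (adjusted p = 2.5e-05). Dlk1, a non-canonical ligand of embryonic mesenchyme, rose from 1148 ± 120 to 2288 ± 379 CPM (SD, n = 2) at E15.5 and from 942 ± 116 to 2940 ± 168 CPM at E17.5, beside the rise of all 10 fibroblast markers at E15.5 and 9 of 10 at E17.5. Of all genes, 23.2% were called higher at E15.5 and 26.7% at E17.5. The part of the fibroblast markers in the rise of Dlk1 was not tested. Dll3 had 25 counts in the E15.5 controls and 17 in the knockouts (-0.63, adjusted p = 0.48). It was at 9 counts in the E17.5 controls and 2 in the knockouts, a ratio of 4.23 (counting interval 0.876 to 40.2, adjusted p = 0.18).

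Among 10 Notch proteases, 4 fell and 1 rose at E15.5 and 2 fell and 2 rose at E17.5. Of 10 genes of receptor trafficking and turnover, 5 rose and 2 fell at E15.5 and 5 rose and 1 fell at E17.5. The shares called were 50% and 40% of the proteases and 70% and 60% of the trafficking genes, against 45.5% and 53.5% of all genes. Dtx2, a Deltex ubiquitin ligase picked after its values were seen, fell by 0.97 and 0.99 on the log2 scale.

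Of 8 nuclear co-activators, 2 fell at E15.5, and 3 fell and 1 rose at E17.5. That is 25% and 50% called, against 45.5% and 53.5% of all genes. The Mastermind genes, whose proteins bind the receptor's intracellular part on Rbpj, were not alike. Maml3 fell by 0.73 ± 0.14 (log2, edgeR adjusted p = 0.0011) and 1.48 ± 0.14 (adjusted p = 5.6e-06), while Maml1 (0.09 and 0.18, adjusted p = 0.51 and 0.17) and Maml2 (-0.02 and 0.06, adjusted p = 0.89 and 0.68) did not pass the test. Of 7 genes on the co-repressor list, 1 fell at E15.5 and 3 at E17.5. The 1 that fell at E15.5 is Kyat1 (-1.96 ± 0.14, adjusted p = 9.3e-07, and -1.74 ± 0.14 at E17.5), a kynurenine aminotransferase that acts in tryptophan metabolism and does not do what the list's name says.

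**Figure D4:**
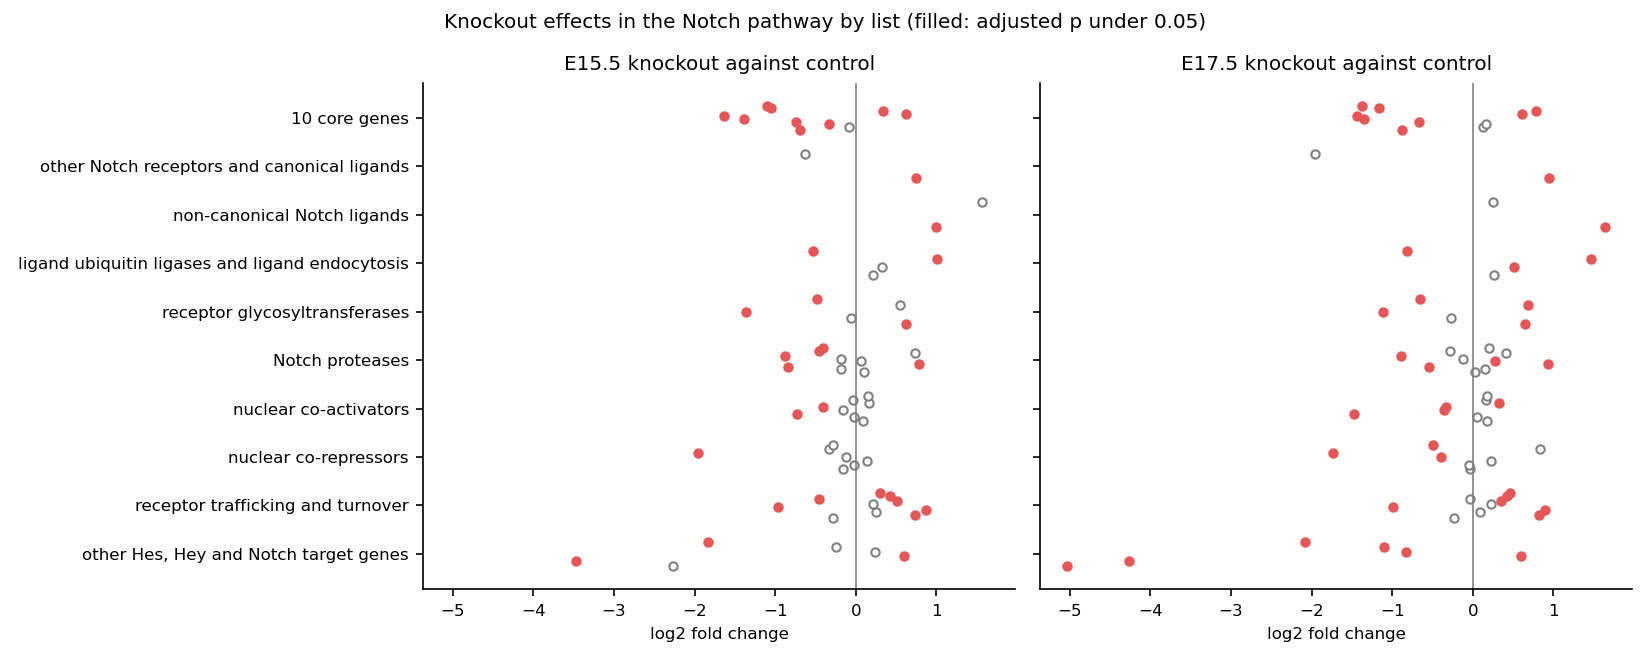
Log2 change in knockout against control of each tested gene of the Notch pathway lists at E15.5 (left) and E17.5 (right), on the same horizontal scale. The 10 genes above are the top row, and filled points mark an edgeR adjusted p under 0.05. The co-repressor row includes Kyat1, a metabolic enzyme. Most lists spread to both sides of 0, and the target genes reach furthest to the left, with Hes5 and Hes2 beyond -3 where called.

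Markers of keratinocyte layers fell, and by their medians further than any member. At E15.5, 9 of 10 basal markers fell (median log2 change -1.86), as did all 8 spinous markers (-1.88) and all 9 hair placode and follicle markers (-3.64). At E17.5, 9 of 10 basal markers fell and 1 rose (-3.35), and all 8 spinous (-3.59) and 9 follicle markers (-4.30) fell. Of all genes, 22.3% were called lower and 23.2% higher at E15.5, and 26.7% in each direction at E17.5. The spinous sum went from between 80734 and 83774 CPM to between 4929 and 5123 CPM at E15.5. Jag2, Dll1, Hes1 and Hey1 thus fell beside these lists by less than the median of any of them at E17.5, and the part of the lists in their fall was not tested. In the other direction, 7 of 9 pericyte and smooth muscle markers rose at E15.5 and 8 of 9 at E17.5, with Pdgfrb up by 1.02 and 1.32, while Notch3 was at -0.34 and 0.16. Erythroid markers rose in 8 of 8 and 7 of 8, from a sum of 7563 to 10653 CPM to one of 42280 to 76172 CPM at E15.5. All 9 myeloid markers rose at both stages (median 1.22 and 2.01), as did all 6 skeletal muscle markers (0.85 and 1.54). Of 5 melanocyte markers 4 and 1 rose. Of 7 Schwann cell and neuron markers 3 rose and 3 fell, then 4 and 3. Of 5 Merkel cell markers 4 fell, then 3 fell and 1 rose. The part of the lists that rose in the rise of Rbpj was not tested. No marker was at 0 in a library in the basal, spinous, endothelial, pericyte, fibroblast or erythroid lists. Dkk4 of the follicle list, Elavl3 of the Schwann cell and neuron list and Atoh1 of the Merkel cell list were at 0 in at least 1 of the 8 libraries.

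**Figure D5:**
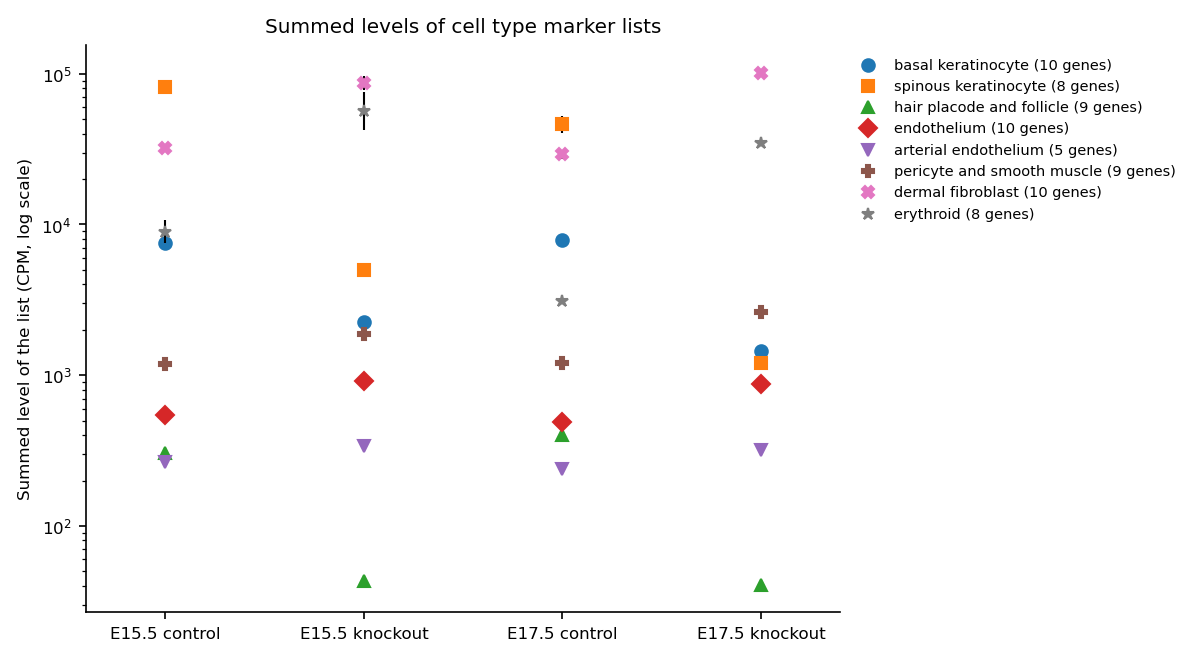
Summed level of 8 marker lists in each group, in CPM on a log axis. The point is the geometric mean of the 2 libraries of a group (their midpoint on the log axis), and the bar spans their range. Knockout groups lie below controls for the basal, spinous and follicle lists and above them for the endothelial, arterial, pericyte, fibroblast and erythroid lists.

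The stages were compared within each genotype. In control epidermis Notch3 fell from E15.5 to E17.5 by 0.60 ± 0.11 (log2, edgeR adjusted p = 0.0063) and Notch2 by 0.40 ± 0.10 (adjusted p = 0.032), and the 8 others did not pass the test, against 10.9% of all genes called, 7.7% lower and 3.15% higher (1259 and 515 genes, or 979 and 686 with upper-quartile scaling). The Notch3 call was lost without E15.5 control 2 (-0.59, adjusted p = 0.055) or E17.5 control 2 (-0.46, adjusted p = 0.065). The Notch2 call was lost without E15.5 control 1 (-0.39, adjusted p = 0.12), E15.5 control 2 (-0.40, adjusted p = 0.15), E17.5 control 2 (-0.34, adjusted p = 0.20), E17.5 knockout 1 (-0.39, adjusted p = 0.060) or E17.5 knockout 2 (-0.39, adjusted p = 0.059). In knockout epidermis Rbpj rose by 0.41 ± 0.10 (adjusted p = 0.022), the 1 member called, against 13.1% of all genes, 6.19% higher and 6.91% lower. That call was lost without E15.5 knockout 1 (0.42, adjusted p = 0.083), E15.5 knockout 2 (0.38, adjusted p = 0.16) or E17.5 knockout 1 (0.33, adjusted p = 0.22). In the wider pathway Maml3 (-1.07) and Nrarp (-0.61) fell and Lfng rose (0.40, adjusted p = 0.025) between the stages in knockouts. The Lfng call was lost without E15.5 knockout 1 (0.37, adjusted p = 0.13), E15.5 knockout 2 (0.43, adjusted p = 0.10), E17.5 knockout 1 (0.36, adjusted p = 0.17) or E17.5 knockout 2 (0.44, adjusted p = 0.076), and with only the groups compared (adjusted p = 0.052).

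The knockout effect itself was compared between the stages as an interaction in the same edgeR fit. It called 4.35% of all genes (1.88% higher, 2.47% lower) and 0 of the 10 members. At an unadjusted p under 0.05 the count was 2, and DESeq2 and limma-voom also called 0. Those 2 were Notch3, with a difference of 0.50 ± 0.16 (adjusted p = 0.13), and Rbpj, with 0.45 ± 0.15 (adjusted p = 0.13), both higher at E17.5. Notch3 passed (0.65, adjusted p = 0.044) when E17.5 control 1 was left out. The differences of Jag2 (0.04 ± 0.15), Dll1 (0.20 ± 0.19) and Hes1 (-0.11 ± 0.16) were close to 1 SE from 0 or nearer, which does not show that the stages act alike.

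The genes most like each member over the 8 libraries were named by Pearson's r of log2 CPM among 13574 genes. The 8 libraries share their genotype and stage groups, and no test was made. Dll1 was followed most closely by Edar (r = 0.9986), Slc22a4 and Pdgfa, and Jag2 by Syde2 (r = 0.9977), Atp6v1b1 and Alox12e. Edar fell by 6.68 on the log2 scale at E15.5, much more than Dll1 itself, so a high r goes with a shared pattern over the libraries and not with a shared size. Hes1 was most like Mettl5 (r = 0.9957), Cadm1 and Gtf2ird1, and Hey1 most like Mdm1 (r = 0.9909), Nf2 and Mrpl55. Notch1 was nearest to Gemin5 (r = 0.9935), Rnf168 and Sipa1l3, and Jag1 to Prdx6 (r = 0.9910), Sox4 and Mrpl32. Of the genes that rose, Rbpj was nearest to Trim72 (r = 0.9941), Vwf and Dysf, and Dll4 to C1galt1c1 (r = 0.9927), Pdia6 and Crtap. Notch2 had Adipor1 (r = 0.9791), Cdk5r1 and Lrrk1 nearest, and Notch3 had Mtmr3 (r = 0.9824), Epg5 and Rbsn. Among the members, Jag2, Dll1 and Hes1 ran together (r = 0.98 for each pair), and Notch2 and Notch3 gave r = 0.90. Notch1 and Rbpj ran opposite (r = -0.93), and Dll4 ran opposite to Jag1 (-0.95), Hes1 (-0.95) and Dll1 (-0.94). These are again descriptions over the 8 libraries.

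The positions of the 10 genes are those of the RefSeq gene table of GRCm38.p6. The receptors are Notch1 at chr2:26457902-26503822, Notch2 at chr3:98013538-98150367 and Notch3 at chr17:32120820-32166896. The ligands are Jag1 at chr2:137081451-137116520, Jag2 at chr12:112907803-112929812, Dll1 at chr17:15367354-15376932 and Dll4 at chr2:119325784-119335666. Rbpj is at chr5:53555779-53657445, Hes1 at chr16:30065357-30067796 and Hey1 at chr3:8663359-8667038.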

How the data were processed

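Epidermal RNA was sequenced in 8 libraries, 2 per group. The values are whole-number read counts per RefSeq transcript, deposited by the authors without normalization; alignment to mm10 was with TopHat version 2 and counting with HOMER, per the submitters' processing notes. The strand setting is not given in the sources used here. Of 30521 transcripts, 29908 were named from RefSeq and 182 from GENCODE M21; the 431 others (2.08% of counts) were left out. Each gene was represented by its transcript with the largest total. Tests used edgeR 4.0.16 in R 4.3.3 (filterByExpr, TMM, quasi-likelihood, 1 mean per group, all 8 libraries), with Benjamini-Hochberg adjustment over 16342 genes and a threshold of 0.05. CPM values are on TMM-scaled totals. Alternatives were RLE and upper-quartile scaling, DESeq2 1.42.0, limma-voom (limma 3.58.1), other filters, summed transcripts, fits of the compared groups alone, a replicate block, and leaving out each library.

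The members and lists were chosen with earlier results of these data known. All 10 members were named. Other pathway genes were counted by list and named where they passed the test with a log2 change of at least 1 in either knockout comparison; Notch4, Dll3, Maml1, Maml2, Maml3, Lfng, Nrarp, Hes5 and Heyl were named whatever their value. For likeness, the 3 nearest genes were named, among those whose log2 CPM averaged 1 or more.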

Additional observations from a re-analysis of the deposited data

Results flagged for a closer look

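Hey2, a repressor of the Hey family, passed the test of a difference in knockout effect between the stages by a small margin, with the interaction at -1.06 ± 0.27 (log2, E17.5 minus E15.5, edgeR adjusted p = 0.048). It read 5.89 and 5.57 CPM in the E15.5 controls and 7.37 and 6.16 CPM in the knockouts, and 7.39 and 8.32 CPM against 4.38 and 4.49 CPM at E17.5. The knockouts were above the controls at E15.5, where the effect was 0.24 ± 0.19 (adjusted p = 0.33), and below them at E17.5, where it was -0.82 ± 0.19 (adjusted p = 0.0033). The difference missed the threshold without any 1 of the 8 libraries, at values from -1.20 to -0.94 and adjusted p from 0.063 to 0.14. It also missed it with limma-voom (adjusted p = 0.058), with summed transcripts (0.057) and with a replicate block (0.057). The gene was named after its values were seen.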

How the results depend on the processing

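The cause of the changes given here was not tested. Knockout values of the members stayed on their side of the test's threshold in 89 of 90 cases at E15.5 and 90 of 90 at E17.5 under the alternatives that keep all libraries; Notch3 at E15.5 was the exception, with upper-quartile scaling. With 1 library left out, 71 and 78 of 80 did. The uncalled E15.5 value of Notch2 changed sign with upper-quartile scaling (0.01) and without E15.5 knockout 2 (0.0025). The members that rose then numbered 0 to 2 at E15.5 and 1 to 2 at E17.5, and those that fell 6 to 7 and 6. The 0 came without E15.5 knockout 1. For E17.5 against E15.5 in controls, 2 members fell, but 1 with upper-quartile scaling, 1 with only the groups compared, and 0 to 2 with 1 library left out. With 1 library left out, 0 to 1 member rose over stage in knockouts, and 0 to 1 passed in the interaction. All genes called ranged from 666 (without E15.5 control 2; 697 without E17.5 control 2) to 1776 in controls over stage, where 1774 were called with all libraries. In knockouts over stage they ranged from 1160 (without E17.5 knockout 1; 1192 without E15.5 knockout 2) to 2256, against 2142. In the interaction they ranged from 377 (without E15.5 knockout 2) to 716, against 711, with 398, 419 and 442 without E15.5 control 2, E17.5 knockout 1 and E15.5 control 1. The share of higher calls in controls over stage was 41.2% with upper-quartile scaling, at 686 higher and 979 lower, against 515 higher and 1259 lower. At E15.5 the same scaling called 4409 genes higher and 2965 lower in knockouts, against 3792 and 3639.

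The labels do not say what a replicate number shares. The correlations of same-numbered deviations lay between -0.0698 and 0.0425. They gave no sign of pairing, but with 2 libraries a group they do not settle whether same-numbered libraries shared an origin. With a replicate block, 2 members rose and 7 fell at E15.5 and 2 rose and 6 fell at E17.5, over 7326 and 8598 genes called. With 2 libraries a group, small effects such as those of Notch3 and Rbpj at E15.5 lie at the limit of what the spread can resolve.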
